A study of Homo sapiens with 4 samples.

Results

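The 33 genes described here serve glucose uptake, its breakdown to pyruvate and lactate, the pentose phosphate pathway and the inhibition of pyruvate dehydrogenase. The transcription factor gene HIF1A is among them. They were taken as a list of symbols by their place in the pathway, with earlier results of these data known. They make up 33 of the 35606 genes to which the deposited transcripts were summed. They were measured by bulk RNA-seq in iMGL, microglia-like cells that were differentiated from induced pluripotent stem cells of the established human line WTC11. The WT group holds 2 libraries of unedited genotype and the S1KO group holds 2 libraries of cells in which SHIP1, the lipid phosphatase encoded by INPP5D, was knocked out by editing. All 4 share the parental line, the differentiation protocol and poly-A selection. The study's design text names 2 clones per genotype, but which clone a replicate number stands for is not given, so a p-value here measures only the spread between these libraries.

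Glycolysis turns glucose into pyruvate in the cytosol and yields ATP without oxygen, and lactate dehydrogenase then keeps the pathway running by recycling NAD. The pentose phosphate pathway leaves glycolysis at glucose 6-phosphate and yields NADPH and ribose. Myeloid cells, microglia among them, are known to raise glycolysis when activated, and SHIP1 removes a phosphate from the phosphoinositide that PI3 kinase makes, upstream of AKT.

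Between 21516813 and 25927881 estimated counts were summed per library. INPP5D stood at 356 and 441 CPM (counts scaled to library size by edgeR's TMM factors) in WT 1 and WT 2 against 81.0 and 97.6 in S1KO 1 and S1KO 2, a log2 fold change of -2.16 ± 0.21 (SE; edgeR adjusted p = 0.0185). The WT libraries gave 14.2% and 18.9% of their counts to mitochondrial transcripts, and the S1KO libraries gave 52.3% and 39.2%. WT 1 stood apart: 7 tested mesenchymal markers summed to 3589 CPM there, against 5.94, 11.7 and 27.5 in WT 2, S1KO 1 and S1KO 2, with COL1A1 at 2709 CPM in WT 1 and 0.638 in WT 2. All 16 myeloid markers were detected in every library, with TMEM119 at 0.798 to 3.10 CPM, and they summed to 5942 and 5809 CPM in WT against 3779 and 3979 in S1KO, P2RY12 being the 1 called (log2 fold change -1.45, edgeR adjusted p = 0.0485). Of these markers 10 had an unadjusted p under 0.05, each lower in S1KO, where 19.4% of all genes passed in either direction, and DESeq2 called 9, where it called 7.53% of all genes. The part of this difference in the results on the 33 genes was not tested. Pluripotency markers were low (13.8 to 18.2 CPM in sum), as were the neuron and astrocyte (18.5 to 45.7) and the erythroid and megakaryocyte markers (6.79 to 12.9), while PECAM1, which myeloid cells also express, was the 1 endothelial marker that could be tested (106 to 140). In bulk RNA, fewer cells of a type and less RNA per cell cannot be told apart.

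The pathway as a whole was abundant, and most estimated changes were small on the CPM scale. All 33 genes passed the filter on low counts, and their median log2 fold change was -0.046, against -0.015 over all 15388 genes tested. Of the 33, 27 lay between -0.5 and 0.5, a count not made over all genes. The median absolute log2 fold change was 0.24 for the members and 0.34 for all genes. The members' 95% intervals had a median width of 1.15, so a small value does not show that a gene was unchanged. With edgeR at an adjusted p under 0.05, 1 of the 33 was called, the glucose transporter gene SLC2A1, which was lower in S1KO; over all genes 145 were called (0.942%; 122 higher and 23 lower). At an unadjusted p under 0.05, 5 members passed (SLC2A1, HK2, HK3, ENO2 and SLC16A1), where 19.4% of all genes did. DESeq2 called 2 members, SLC2A1 and the hexokinase gene HK3, against 7.53% of all genes. In these last counts the members' share was below that of all genes.

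**Figure D1:**
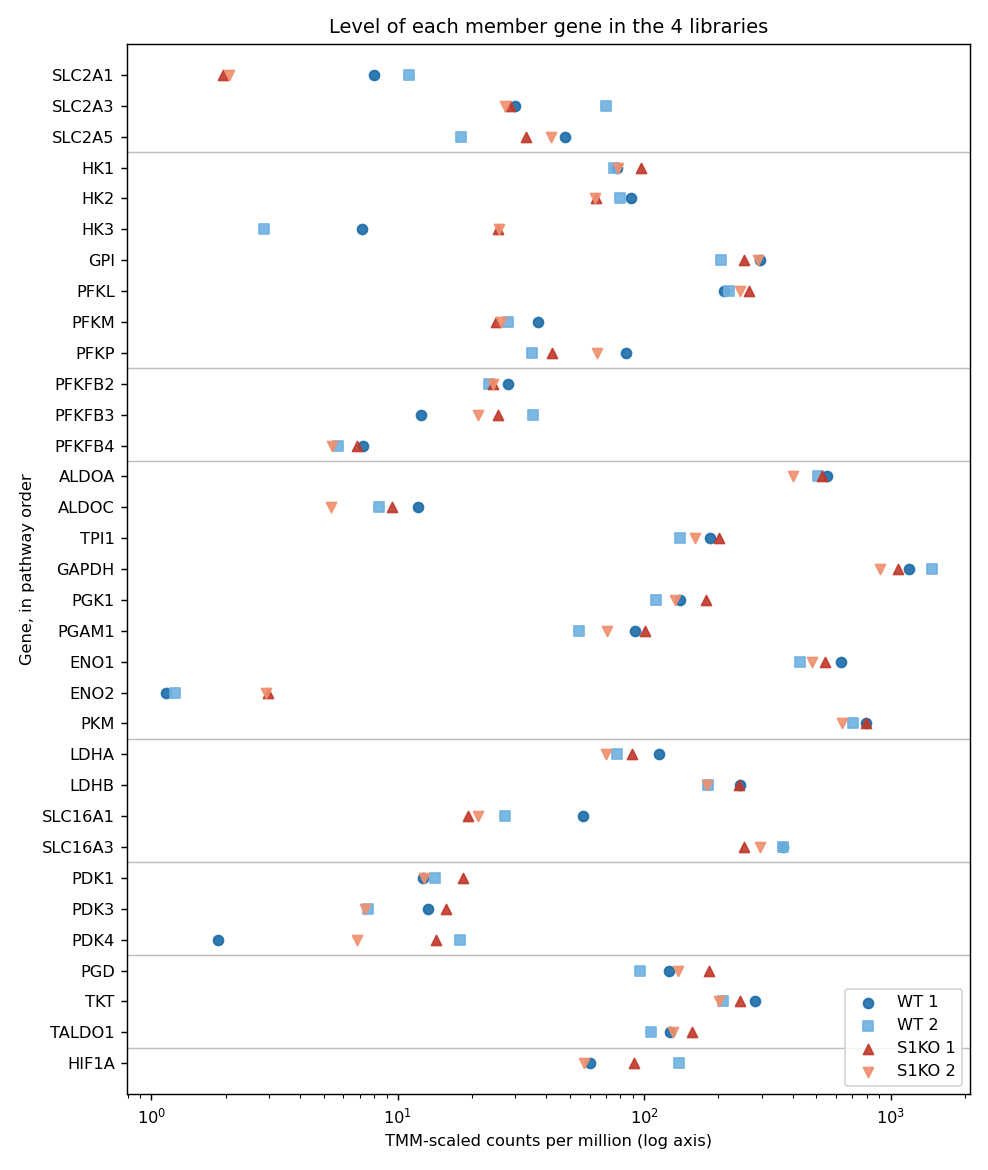
TMM-scaled CPM (log axis) of the 33 genes in WT 1, WT 2, S1KO 1 and S1KO 2, in pathway order, with 1 point per library and lines between functional groups. The 2 S1KO points lie apart from the 2 WT points for SLC2A1, HK3 and ENO2, while for PDK4 and PFKFB3 the WT points are the lowest and the highest of the 4.

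Both S1KO libraries were below both WT libraries for 7 members (SLC2A1, SLC2A3, HK2, PFKM, GAPDH, SLC16A1 and SLC16A3), where 25.7% of all genes lay so, and above both for 6 (HK1, HK3, PFKL, ENO2, PGD and TALDO1), where 26.0% did. The other 20 members overlapped between the groups. The WT libraries differed from each other by more than the groups did for 20 of the 33, and the S1KO libraries also for 20. This was not counted over all genes. The members' median gap on the log2 scale was 0.42 between WT 1 and WT 2 and 0.31 between S1KO 1 and S1KO 2. WT 1 was the higher of the WT libraries for 23 members and the highest of all 4 libraries for 15.

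**Figure D2:**
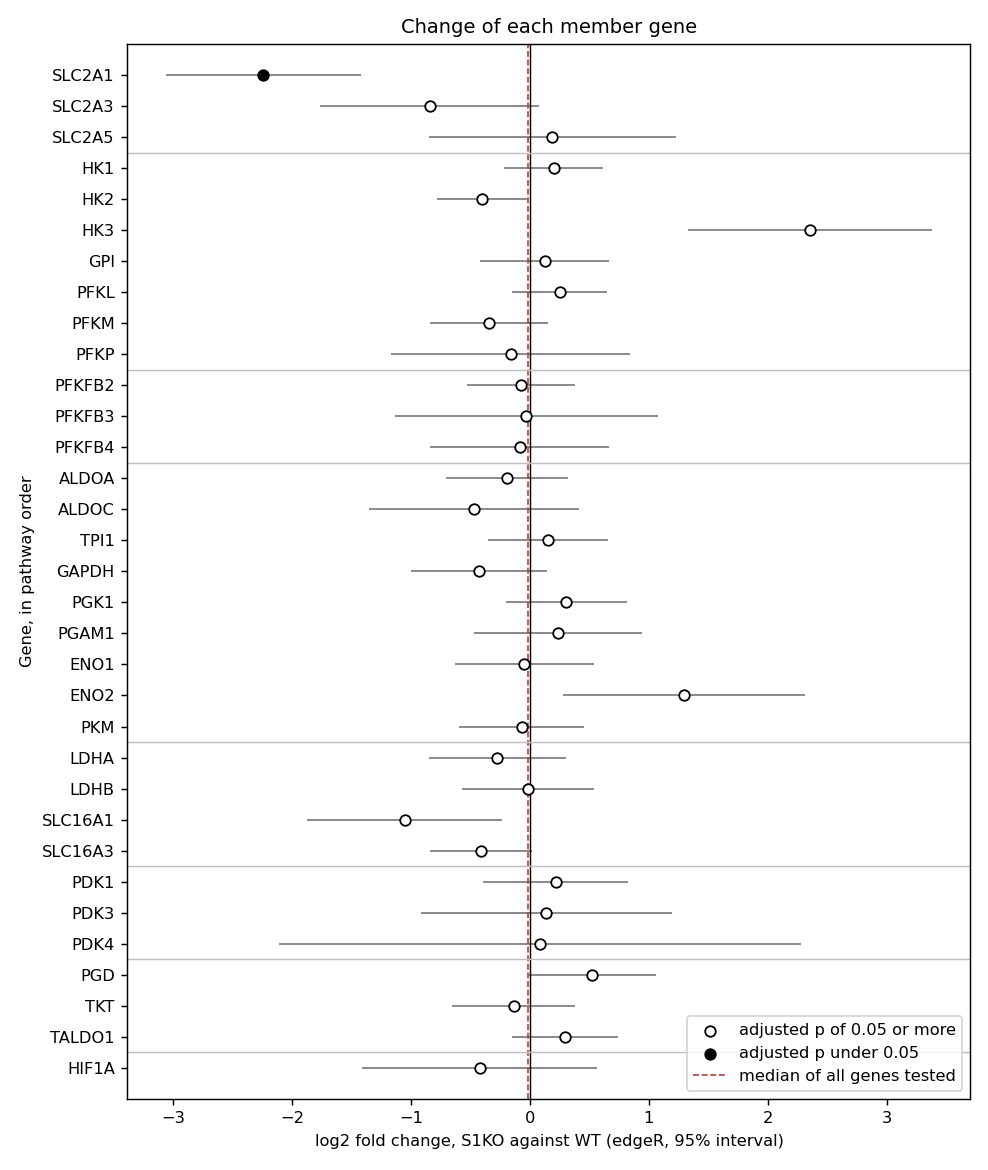
log2 fold change of each of the 33 genes, S1KO against WT, from edgeR with its 95% interval, n = 2 libraries per group. The filled point marks SLC2A1 at -2.24, and the dashed line is the median of all genes tested at -0.015; the intervals of SLC2A1, HK2, HK3, ENO2 and SLC16A1 do not reach 0.

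Glucose enters through facilitative transporters. SLC2A1 encodes GLUT1, the widely expressed transporter of basal glucose uptake, and lies at chr1:42925375-42959176 on the minus strand (GRCh38). It stood at 8.04 and 11.1 CPM in WT 1 and WT 2, against 1.95 and 2.07 CPM in S1KO 1 and S1KO 2. Both S1KO libraries were thus far under both WT libraries, 4.74-fold in the fit, with a log2 fold change of -2.24 ± 0.34 (SE; 95% interval -3.06 to -1.43, edgeR adjusted p = 0.0489). The S1KO values rest on 29 and 44 estimated counts and the WT values on 225 and 347. The value was -2.45 without WT 1 and -1.99 without WT 2 and still called, whereas without S1KO 1 (-2.21, adjusted p = 0.685) or without S1KO 2 (-2.30, adjusted p = 0.433) edgeR called no gene of the table (1173 and 1641 genes at an unadjusted p under 0.05). The call also ended with the replicate block (-2.23, adjusted p = 0.0917), without mitochondrial genes (adjusted p = 0.0514), with an offset for effective length (-1.70, adjusted p = 0.126), over coding transcripts alone (-2.79, adjusted p = 0.139) and, on limma's log2(TPM + 1) scale without mitochondrial genes, at -1.41 (adjusted p = 0.156).

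SLC2A3, which encodes the high-affinity GLUT3 of neurons and leukocytes, stood at 29.8 CPM in WT 1, 70.2 in WT 2, 28.6 in S1KO 1 and 27.2 in S1KO 2. WT 2 alone was high and WT 1 lay close to the S1KO libraries. The log2 fold change was -0.84 ± 0.38 (edgeR adjusted p = 0.292), -0.090 without WT 2 and -1.33 without WT 1. SLC2A5 encodes GLUT5, a fructose transporter that is abundant in microglia within the brain, and was per length the highest of the 3 in every library but WT 2. It stood at 47.9, 18.0, 33.2 and 41.7 CPM in WT 1, WT 2, S1KO 1 and S1KO 2, so that the S1KO values fell between the WT values (log2 fold change 0.19 ± 0.43). Of the TPM of the 3 transporters, SLC2A1 took 7.74% and 11.8% in WT against 4.37% and 2.92% in S1KO, and SLC2A5 took 64.5%, 25.6%, 62.7% and 64.8%. With 2 libraries against 2 an exact permutation test cannot give a p below 0.333, so such shares are given here without a test.

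**Figure D3:**
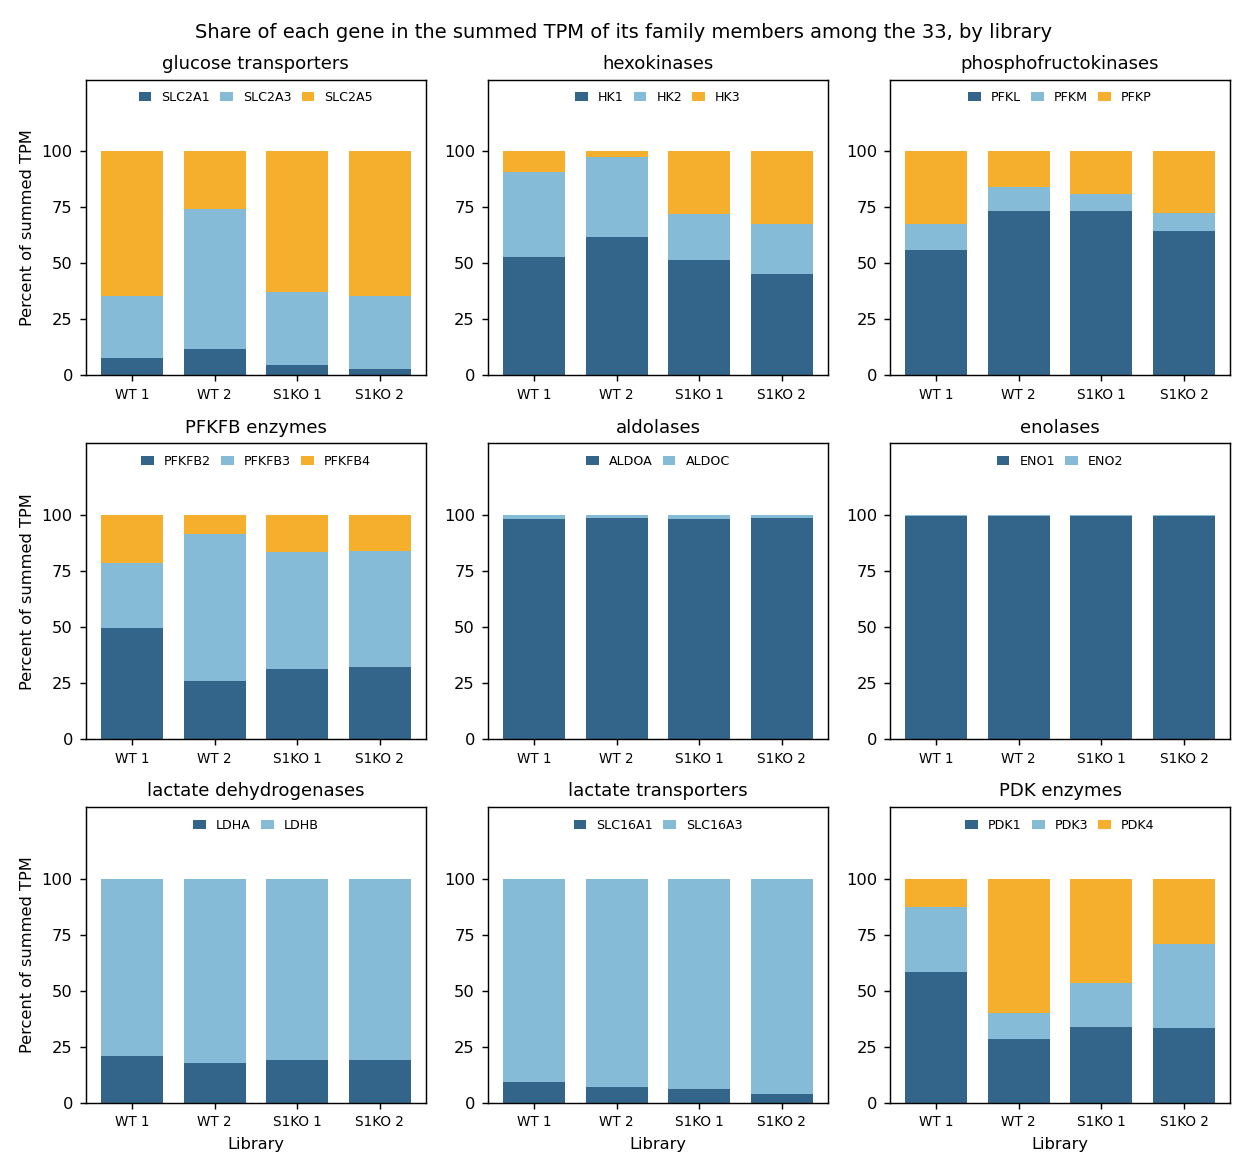
Percent that each gene took of the summed TPM of those members among the 33 that belong to its enzyme or transporter family, for 9 families, as stacked bars per library. HK3 took 9.28% and 2.55% of the 3 hexokinase genes in WT against 28.1% and 32.7% in S1KO, while LDHA stayed between 17.8% and 20.6% of the lactate dehydrogenases. All transcripts of a gene are summed, those annotated as retained introns included.

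Hexokinases phosphorylate glucose and so trap it in the cell. HK3, which encodes the hexokinase typical of myeloid cells and has no mitochondrial binding sequence, stood at 7.18 and 2.87 CPM in WT 1 and WT 2, against 25.5 and 25.9 CPM in S1KO 1 and S1KO 2. Both S1KO libraries were above both WT libraries and nearly equal to each other. The log2 fold change was 2.35 ± 0.43 (95% interval 1.33 to 3.38), the highest of the 33, and edgeR did not call it (adjusted p = 0.069), while DESeq2 did (adjusted p = 7.81e-06). It was 3.16 without WT 1 and 1.84 without WT 2, and called both times, and 1.47 (adjusted p = 0.17) when protein-coding transcripts alone were summed.

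HK2, the inducible hexokinase that binds mitochondria, stood at 88.1 and 79.5 CPM in WT against 63.5 and 63.1 in S1KO (log2 fold change -0.41 ± 0.16, edgeR adjusted p = 0.23). HK1, the housekeeping form, stood at 77.5, 75.7, 97.4 and 78.5 CPM in WT 1, WT 2, S1KO 1 and S1KO 2 (0.20 ± 0.17, adjusted p = 0.573 by edgeR). The shares of the 3 genes did not overlap between the groups: HK2 took 38.0% and 35.9% of the summed TPM of HK1, HK2 and HK3 in WT against 20.2% and 22.2% in S1KO, HK1 took 52.7% and 61.6% against 51.6% and 45.1%, and HK3 filled the rest. Summed over the 3 genes, TPM rescaled without mitochondrial genes was 89.9 and 84.0 in WT against 101 and 108 in S1KO. These shares and sums include the retained-intron HK3-203, at 1988 bases shorter than the coding HK3-201 at 3082. HK3-203 held 47.8% and 18.0% of the counts of HK3 in WT against 57.7% and 71.9% in S1KO, so they do not stand for coding transcripts alone.

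HK2 is read from 2 annotated start sites, and the shares of counts on them did not overlap between the groups, although the sum of the gene moved little. HK2-201 begins at chr2:74833981 with a first exon that ends at 74834643, and HK2-202 begins 1189 bases downstream with a first exon at chr2:74835170-74835338; both are protein-coding and share every exon from 74854293 on. HK2-202 held 78.3% and 78.8% of the gene's estimated counts in WT 1 and WT 2, against 48.8% and 39.1% in S1KO 1 and S1KO 2. HK2-201 held 21.6% and 21.1% in WT against 51.2% and 60.9% in S1KO. The 95% Wilson intervals for HK2-201 ran from 20.0% to 23.3% and from 19.6% to 22.8% in WT. In S1KO they ran from 48.0% to 54.3% and from 58.2% to 63.5%. These intervals take estimated counts as observed ones, so they leave out error in assigning reads to transcripts and the spread between libraries. On the CPM scale HK2-202 stood at 70.6 and 62.1 in WT against 33.01 and 25.5 in S1KO, and HK2-201 at 19.5 and 16.7 against 34.6 and 39.6. In an edgeR test of all 51053 transcripts, the log2 fold change was -1.18 ± 0.23 for HK2-202 (adjusted p = 0.228) and 1.04 ± 0.23 for HK2-201 (adjusted p = 0.242). That edgeR test called 0 transcripts in all (7156 at an unadjusted p under 0.05), while DESeq2 called 2958 and among them HK2-202 (adjusted p = 0.0011) and HK2-201 (adjusted p = 0.00623). These transcripts were picked after their values were seen.

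The sequence before each start is shown because these transcripts differ in their starts and first exons. Whether the first exons also change the encoded protein was not examined. Both stretches come from RefSeq's promoter windows (GRCh38.p14), on the plus strand, 5′ to 3′. Capitals mark ACGTG or GCGTG, the core letters of the hypoxia response element that HIF factors bind, on either strand, together with the first letter of CACGTG where the palindromic E-box stands.
HK2-202, chr2:74834920-74835169: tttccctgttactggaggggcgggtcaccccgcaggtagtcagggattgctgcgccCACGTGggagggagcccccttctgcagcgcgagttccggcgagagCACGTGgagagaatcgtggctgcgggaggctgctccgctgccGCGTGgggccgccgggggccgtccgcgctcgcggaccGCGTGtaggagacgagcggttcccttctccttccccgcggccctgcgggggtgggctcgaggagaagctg
HK2-201, chr2:74833877-74833980: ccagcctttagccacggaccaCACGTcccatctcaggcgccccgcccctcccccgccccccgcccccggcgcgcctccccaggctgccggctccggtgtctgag
The 250 bases before HK2-202 held CACGTG at 2 places, each of which reads as ACGTG on both strands and so counts as 4 matches, and GCGTG at 2 more. The 104 bases before HK2-201 held ACGTG once, on the opposite strand. This stretch is the shorter, so the counts of matches cover unlike lengths. ACGTG stood in 18.5% and GCGTG in 32.2% of 35116 RefSeq windows of 250 bases, CACGTG in 6.34%, and ACGTG or GCGTG in 43.2%. Of the members, 30 had a window in the table (SLC2A3, PFKFB2 and SLC16A1 were not matched), and 29 of their 57 windows (50.9%) held ACGTG or GCGTG. By motif, the members' windows held ACGTG in 33.3%, GCGTG in 29.8% and CACGTG in 10.5%. Their difference from all windows was not tested. A match of letters does not show that a factor was bound.

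**Figure D4:**
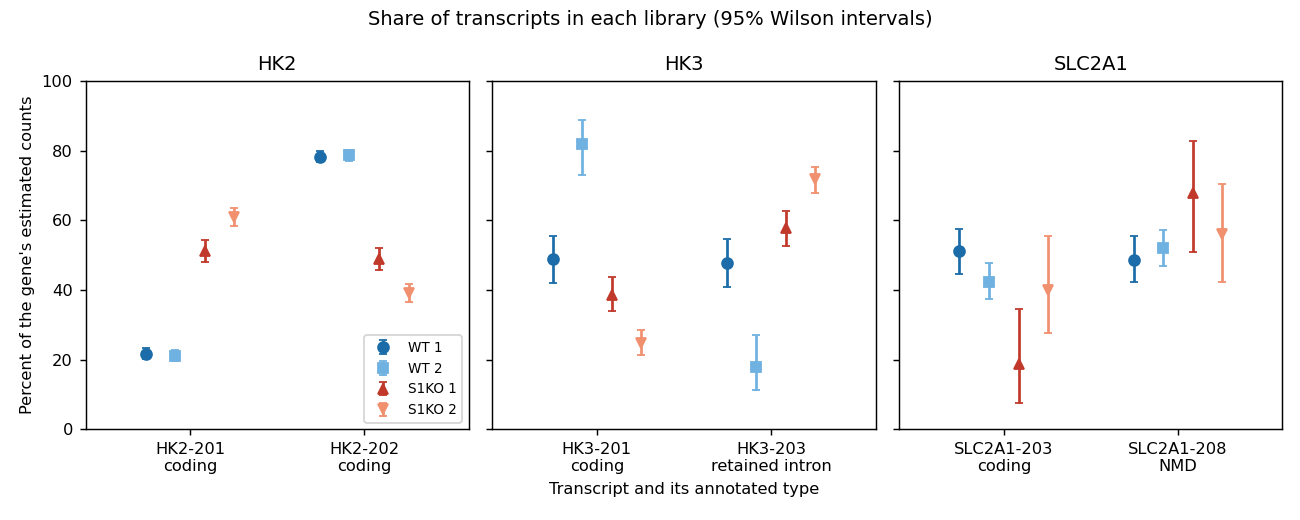
Percent of the gene's estimated counts on 2 transcripts each of HK2, HK3 and SLC2A1 in the 4 libraries, with 95% Wilson intervals. The intervals take estimated counts as observed ones, so error in assigning reads to transcripts and the spread between libraries are not covered. HK2-201 lies at 21.6% and 21.1% in WT against 51.2% and 60.9% in S1KO, while the groups' intervals overlap for SLC2A1-208.

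HK3 and SLC2A1 differed within themselves too. Of the counts of HK3, the retained-intron transcript HK3-203 held 47.8% and 18.0% in WT against 57.7% and 71.9% in S1KO, and the coding HK3-201 held 48.9%, 82.0%, 38.5% and 24.7% in WT 1, WT 2, S1KO 1 and S1KO 2. In CPM the coding HK3-201 stood at 3.59 and 2.34 in WT against 10.5 and 6.60 in S1KO (log2 fold change 1.52 ± 0.48, adjusted p = 0.297 in edgeR's transcript test). The retained-intron HK3-203 stood at 3.51 and 0.507 CPM in WT against 15.6 and 19.2 in S1KO (3.12 ± 0.97, adjusted p = 0.299 in the same edgeR test). SLC2A1 was split between the coding SLC2A1-203 (51.2%, 42.2%, 18.6% and 40.0%) and SLC2A1-208, annotated as subject to nonsense-mediated decay (48.8%, 52.1%, 67.8% and 56.1%). Both were lower in S1KO: SLC2A1-203 stood at 4.21 and 4.65 CPM in WT against 0.359 and 0.873 in S1KO, and SLC2A1-208 at 4.02 and 5.73 against 1.44 and 1.21.

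Glucose 6-phosphate isomerase and the phosphofructokinases carry the sugar on to fructose 1,6-bisphosphate, the committed step. GPI, the isomerase, was the highest of this group per length and stood at 295, 205, 254 and 291 CPM in WT 1, WT 2, S1KO 1 and S1KO 2 (0.12 ± 0.23). PFKL, the liver-type phosphofructokinase and the main one here, stood at 211 and 221 CPM in WT against 267 and 245 in S1KO, with a log2 fold change of 0.25 ± 0.17 (edgeR adjusted p = 0.456). Its coding transcript PFKL-201 held 53.4% and 44.1% of its counts in WT against 73.3% and 67.2% in S1KO, and the change was 0.78 over coding transcripts alone. PFKM, the muscle type, stood at 37.1 and 27.9 CPM against 25.1 and 26.2 (-0.34 ± 0.21), and turned to 0.57 over coding transcripts alone. PFKP, the platelet type, stood at 84.1, 35.1, 42.2 and 64.2 CPM, with the WT values on either side of the S1KO values; its log2 fold change was 0.60 without WT 1 and -0.65 without WT 2 (edgeR adjusted p = 0.0849 and 0.0493).

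The PFKFB enzymes make and break fructose 2,6-bisphosphate, the activator of phosphofructokinase. None of the 3 separated the groups. PFKFB3, the inducible form with high kinase activity, stood at 12.4 CPM in WT 1 and 35.5 in WT 2, with S1KO 1 at 25.6 and S1KO 2 at 21.2 between them, so its change was -0.033 ± 0.46 in full, 0.92 without WT 2 and -0.60 without WT 1. PFKFB2 stood at 28.0, 23.5, 24.3 and 24.4 CPM and PFKFB4 at 7.22, 5.74, 6.81 and 5.41 in WT 1, WT 2, S1KO 1 and S1KO 2. The 95% intervals ran from -0.53 to 0.37 for PFKFB2 and from -0.84 to 0.66 for PFKFB4.

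Lower glycolysis splits the 6-carbon sugar and harvests ATP and NADH on the way to pyruvate. GAPDH, ALDOA, PKM and ENO1 led the 33 by length-scaled level, whereas ENO2 was the lowest of the 33. Of the 9 genes of this group, 7 overlapped between WT and S1KO. GAPDH, glyceraldehyde 3-phosphate dehydrogenase and a common reference gene, was the highest of all by length-scaled level and stood at 1183 and 1474 CPM in WT against 1070 and 905 in S1KO. Both S1KO values were under both WT values, with a log2 fold change of -0.43 ± 0.24 (95% interval -0.997 to 0.14; edgeR adjusted p = 0.375). ALDOA, the main aldolase, stood at 554, 508, 525 and 403 CPM (-0.19 ± 0.21) and took 98.3% to 98.9% of the summed TPM of ALDOA and ALDOC in each library. ALDOC, the brain-type aldolase, stood at 12.1, 8.43, 9.50 and 5.36 CPM (-0.47 ± 0.37), among the 4 lowest fold changes but with overlapping groups.

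Triose phosphate isomerase (TPI1) stood at 185, 140, 200 and 161 CPM in WT 1, WT 2, S1KO 1 and S1KO 2. Phosphoglycerate kinase (PGK1), which makes the first ATP of the pathway's payoff, stood at 139, 112, 177 and 133 CPM, a log2 fold change of 0.30 ± 0.21 (edgeR adjusted p = 0.476). Phosphoglycerate mutase (PGAM1) stood at 91.4, 54.2, 101 and 70.7 CPM. Its near-identical copies (pseudogenes and PGAM4) took 2.63% to 3.86% of the summed counts of gene and copies. In all 3 the S1KO values overlapped the WT values, and the value of PGAM1 was 0.66 without WT 1, which edgeR called (adjusted p = 0.0421), and -0.089 without WT 2.

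Enolase turns phosphoglycerate into phosphoenolpyruvate. ENO1, the general enolase, stood at 626, 429, 544 and 478 CPM (-0.046 ± 0.24), and ENO2, the neuron-type enolase, at 1.14 and 1.24 CPM in WT against 2.97 and 2.91 in S1KO. The S1KO values of ENO2 were both above the WT values and the replicates lay close, on 32.4 to 62.0 estimated counts per library; the log2 fold change was 1.30 ± 0.42 (95% interval 0.27 to 2.32) and edgeR did not call it (adjusted p = 0.181). On the log2(TPM + 1) scale the change of ENO2 was 0.073, and 0.70 on TPM rescaled without mitochondrial genes. ENO2 made up 0.259% and 0.21% of the summed TPM of ENO1 and ENO2 in WT against 0.416% and 0.603% in S1KO. ENO3, the muscle-type enolase, which is outside the 33 and is named after its values were seen, stood at 22.3 and 33.8 CPM in WT against 35.7 and 40.6 in S1KO (0.44 ± 0.24; edgeR adjusted p = 0.37), far above ENO2.

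Pyruvate kinase M (PKM) ends glycolysis and stood at 797, 702, 794 and 634 CPM in WT 1, WT 2, S1KO 1 and S1KO 2 (-0.070 ± 0.22, 95% interval -0.60 to 0.46). The gene carries a pair of mutually exclusive exons of 167 bases each, and which one is kept decides between PKM1, the constitutively active form, and PKM2, the form open to regulation. They are shown from the minus strand, 5′ to 3′, from the GENCODE 29 transcripts (GRCh38), with the 62 positions at which they differ in capitals.
PKM2 exon, chr15:72202454-72202620: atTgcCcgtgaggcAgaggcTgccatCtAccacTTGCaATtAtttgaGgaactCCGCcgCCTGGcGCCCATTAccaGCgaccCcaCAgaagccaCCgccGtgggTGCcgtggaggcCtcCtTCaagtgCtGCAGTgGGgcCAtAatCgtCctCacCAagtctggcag
PKM1 exon, chr15:72203022-72203188: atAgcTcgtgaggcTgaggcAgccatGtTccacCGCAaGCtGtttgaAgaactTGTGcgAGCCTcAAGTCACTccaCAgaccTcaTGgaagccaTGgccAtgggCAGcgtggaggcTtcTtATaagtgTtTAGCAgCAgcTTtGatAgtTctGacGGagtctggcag
Of the estimated counts on transcripts that hold one of these exons, 97.5% (95% Wilson interval 97.3% to 97.7%) and 96.2% (95.9% to 96.5%) were on PKM2 transcripts in WT 1 and WT 2, and 98.6% (98.4% to 98.8%) and 97.6% (97.3% to 97.8%) in S1KO 1 and S1KO 2. Both S1KO shares were above both WT shares, but the intervals of S1KO 2 and WT 1 overlapped. The intervals leave out error in assigning reads to transcripts and the spread between libraries. PKM2 was the main form in all 4 libraries.

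Lactate dehydrogenase interconverts pyruvate and lactate, and the monocarboxylate transporters carry lactate across the membrane with a proton. LDHA, the form that favours lactate, stood at 115, 77.3, 89.0 and 70.0 CPM in WT 1, WT 2, S1KO 1 and S1KO 2 (-0.27 ± 0.24). LDHB, the form that favours pyruvate, stood at 245, 182, 242 and 180 CPM (-0.016 ± 0.23). LDHA took 20.6% and 17.8% of the TPM of the pair in WT against 19.0% and 19.1% in S1KO, so its share differed less between the groups than between the WT libraries.

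SLC16A1 encodes MCT1, which moves lactate either way, and SLC16A3 encodes MCT4, the lactate exporter of glycolytic cells. SLC16A1 stood at 56.3 and 27.4 CPM in WT against 19.2 and 21.1 in S1KO. Both S1KO libraries were below both WT libraries, but WT 2 lay nearer to them than to WT 1, the library with the mesenchymal markers; the log2 fold change was -1.05 ± 0.34 (edgeR adjusted p = 0.178), -0.44 without WT 1 and -1.48 without WT 2 (called at an adjusted p of 9.78e-06). The part of those markers' source in that value was not tested. SLC16A3, the more abundant of the pair, stood at 364 and 367 CPM in WT against 254 and 295 in S1KO (-0.41 ± 0.18; edgeR adjusted p = 0.275), and its value ran from -0.54 to -0.32 as each library was left out. SLC16A1 took 9.41% and 6.88% of the pair's TPM in WT against 5.90% and 3.82% in S1KO.

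Pyruvate dehydrogenase kinases switch off pyruvate dehydrogenase and so keep pyruvate out of the citric acid cycle. PDK4, which fasting and fatty acids induce, stood at 1.86 CPM in WT 1, 17.9 in WT 2, 14.3 in S1KO 1 and 6.82 in S1KO 2. The WT libraries lay at both ends, and the log2 fold change of 0.084 ± 0.91 became 2.50 without WT 2 (edgeR adjusted p = 0.000111) and -0.78 without WT 1. PDK1, a known HIF target, stood at 12.6, 14.1, 18.3 and 12.8 CPM (0.22 ± 0.25), and PDK3 at 13.3, 7.56, 15.7 and 7.33 (0.14 ± 0.44). Of the counts of PDK3, the transcript PDK3-204, annotated as subject to nonsense-mediated decay, held 9.52%, 26.5%, 24.6% and 90.2%, standing out in S1KO 2, and over coding transcripts alone the change was -0.55.

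In the pentose phosphate pathway, 6-phosphogluconate dehydrogenase (PGD) yields NADPH, and transketolase (TKT) and transaldolase (TALDO1) shuttle carbon back to glycolysis. PGD stood at 126 and 96.2 CPM in WT against 183 and 137 in S1KO, above WT in both (log2 fold change 0.52 ± 0.22; 95% interval -0.011 to 1.06; edgeR adjusted p = 0.266). Without WT 1 it was 0.73 and called (adjusted p = 0.025). TALDO1 stood at 128 and 106 CPM against 156 and 130, also above WT in both but by little (0.29 ± 0.18; edgeR adjusted p = 0.429). TKT overlapped, at 281, 209, 245 and 200 CPM (-0.14 ± 0.21). PGD and TALDO1 turned to -0.46 and -0.65 on the log2(TPM + 1) scale, on which the median of all genes was -0.78.

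HIF1A encodes the oxygen-regulated subunit of HIF-1, which activates many of these genes and is controlled mainly through protein stability, not mRNA. It stood at 60.1 CPM in WT 1, 139 in WT 2, 91.3 in S1KO 1 and 57.0 in S1KO 2. WT 2 was high, the other WT library lay with S1KO 2, and the groups overlapped (-0.42 ± 0.41, edgeR adjusted p = 0.616). Without WT 1 the value was -0.90 (called, adjusted p = 0.00209) and without WT 2 it was 0.30.

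The WT libraries pulled the members apart in different ways. Leaving out WT 1, edgeR called 7 members (SLC2A5, HK3, PGAM1 and PGD higher; SLC2A1, SLC2A3 and HIF1A lower) among 1978 of 16080 genes (12.3%). Leaving out WT 2, it called 6 (HK3, PFKFB3 and PDK4 higher; SLC2A1, PFKP and SLC16A1 lower) among 2139 of 16241 genes (13.2%). SLC2A1 and HK3 were the 2 in both sets. In each case the WT group is 1 library, assumed to vary like the S1KO pair. Of the 33 members, 9 kept their direction in all 15 alternatives tried: SLC2A1, SLC2A3, HK2, ALDOC, GAPDH, SLC16A1 and SLC16A3 lower, and HK3 and ENO2 higher. The other 24 turned in at least 1. Of these, HK1, PFKL, PGD and TALDO1, all higher with edgeR on counts, turned only with limma on log2(TPM + 1). The median of all genes was -0.78 on that scale, so the count of 9 favours genes that were lower. It was not made over all genes.

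**Figure D5:**
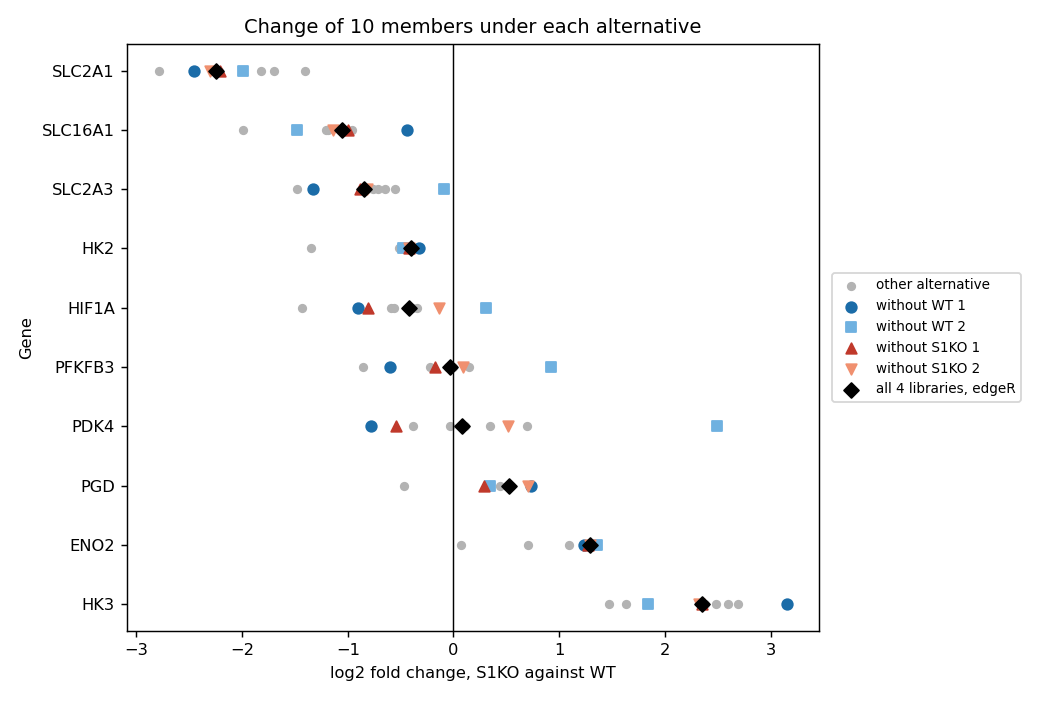
log2 fold change, S1KO against WT, of 10 of the 33 genes under each analysis: edgeR with all 4 libraries (diamond), each library left out (coloured) and the other alternatives (grey). SLC2A1 and HK3 stay on their side of 0 throughout, whereas PDK4 runs from -0.78 without WT 1 to 2.50 without WT 2.

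The scale of the values decided how the pathway looked as a whole. The deposited TPM divide by a total that includes mitochondrial transcripts. By this measure 31 of the 33 members had a lower mean in S1KO and 26 had both S1KO libraries under both WT libraries. Neither count was made over all genes, whose median also fell on this scale. With limma on log2(TPM + 1), 10 members were called (9 lower, and HK3 higher). Of all genes 2896 were called (18.8%), 2763 of them lower and 133 higher. The median of the members was -0.96 where that of all genes was -0.78. With TPM rescaled without mitochondrial genes, 23 members had a lower mean, which was also not counted over all genes. On this scale limma called 0 members and 159 of 15360 genes (1.04%). At an unadjusted limma p under 0.05, 4 members and 2529 of all these genes passed. The medians were -0.065 for the members and -0.078 for all genes. The 33 genes together made up 0.834% and 0.803% of that rescaled TPM in WT against 0.648% and 0.677% in S1KO, whereas their summed CPM overlapped (5925 and 5483 against 5649 and 4826). GAPDH and ALDOA made up 77.6% of the gap in rescaled TPM: the value of GAPDH was 2372 and 2960 against 1728 and 1821, and that of ALDOA 1063 and 1071 against 741 and 751. Their shorter transcripts took less of their counts in S1KO, GAPDH-211 with 27.0% and 47.0% against 1.46% and 19.2%, and the retained-intron ALDOA-214 with 15.9% and 28.2% against 0.979% and 11.7%. For GAPDH the log2 fold change was -0.43 on counts, -0.50 with the length offset and -0.58 on rescaled TPM. The cause of the gap was not tested.

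Shares of single transcripts also differed between the groups. Among 64 transcripts that held at least 15% of their gene's counts in 1 library or more, 26 in 14 genes had shares that did not overlap between the groups and mean shares at least 10 percentage points apart. These were 40.6% of the members' transcripts, and 42.4% of the members held one. By the same rule 28.8% of 30578 transcripts of all 14241 protein-coding nuclear genes tested did so, and 36.6% of these genes held such a transcript. The members' share thus lay near the background for genes and above it for transcripts, and neither difference was tested. The retained-intron LDHB-206 held 8.28% and 19.7% of LDHB in WT against 0.13% and 0% in S1KO. TKT-204, annotated as subject to nonsense-mediated decay, held 9.42% and 23.3% of TKT in WT and at most 0.106% in S1KO. The retained-intron SLC2A3-205 held 39.7% and 28.6% of SLC2A3 against 9.66% and 5.74%. For 13 members (39.4%) coding transcripts took a higher share of the gene in each S1KO library than in either WT library. The share was lower for 3 (9.09%), SLC2A1, HK3 and PFKFB4, and overlapped for 17. Over all 14241 genes 21.2% were higher so and 14.4% lower. Over all protein-coding genes outside the mitochondrial genome, the share of coding transcripts was 82.6% and 79.8% in WT against 86.4% and 81.8% in S1KO, which overlap. The cause of these shifts was not tested.

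Among 35 other genes of the same pathways, 27 could be tested and edgeR called 2. GALM, galactose mutarotase, which readies sugars for the pathway, was higher in S1KO: 54.2 and 63.9 CPM in WT against 144 and 143, a log2 fold change of 1.28 ± 0.16 (edgeR adjusted p = 0.0407). BSG encodes basigin, the partner that brings MCT1 and MCT4 to the membrane, and was lower: 312 and 321 CPM against 149 and 152 (-1.07 ± 0.16; edgeR adjusted p = 0.0489). In both genes the replicates lay close together and the groups far apart. The list had a median of 0.088, with 7 genes at an unadjusted edgeR p under 0.05, where 19.4% of all genes passed. DESeq2 called 4 (SLC2A6, GALM, BSG and FBP1), where it called 7.53% of all genes. Leaving out either S1KO library ended both calls, as it did for every gene, and so did the replicate block (adjusted p = 0.075 for GALM and 0.0805 for BSG), coding transcripts alone (0.0817 and 0.105) and limma on rescaled TPM (0.0635 and 0.0735). The call of BSG also ended with the length offset (adjusted p = 0.0561) and without mitochondrial genes (0.0506), and that of GALM on limma's log2(TPM + 1) scale (0.32, adjusted p = 0.596).

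Of 20 HIF targets outside glycolysis, 18 could be tested and edgeR called 1. HILPDA, a lipid droplet protein that inhibits triglyceride breakdown, stood at 9.36 and 7.88 CPM in WT against 40.1 and 47.0 in S1KO, a log2 fold change of 2.34 ± 0.21 (edgeR adjusted p = 0.0174). Over coding transcripts alone it was 0.60 (edgeR adjusted p = 0.622). The median of the list was -0.23, with 11 values under 0 and 7 over. An unadjusted edgeR p under 0.05 was reached by 6 genes, of which 5 were lower, where 19.4% of all genes passed. DESeq2 called HILPDA, INSIG2 and P4HA1, where it called 7.53% of all genes. HILPDA thus stood opposite to most of its list.

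Among 9 tested regulators of the HIF pathway edgeR called 0 (2 at an unadjusted p under 0.05, 1 by DESeq2), with a median of 0.24. Here and for the 2 lists below, 19.4% of all genes had an unadjusted edgeR p under 0.05 and DESeq2 called 7.53%. EPAS1, which encodes HIF-2 alpha, stood at 2.82 and 1.21 CPM in WT against 23.7 and 11.3 in S1KO (3.11 ± 0.54, edgeR adjusted p = 0.0613; 0.47 on the log2(TPM + 1) scale, 1.29 on rescaled TPM, 1.71 with the length offset and 7.33 over coding transcripts alone). HIF3A, which encodes a subunit that can hold HIF in check, stood at 1.68 and 2.49 CPM against 4.18 and 4.42 (1.04 ± 0.40; edgeR adjusted p = 0.23). Both lay above WT in both S1KO libraries. Of 11 genes that carry pyruvate into mitochondria or act on it there, edgeR called 0 (0 at an unadjusted p under 0.05, 0 by DESeq2), with a median of -0.044. The smallest p fell to MPC2, a subunit of the mitochondrial pyruvate carrier, at 19.9 and 24.1 CPM against 34.3 and 26.5, and PDP2, a pyruvate dehydrogenase phosphatase, at 9.44 and 8.33 against 10.4 and 12.1. Of 13 genes of glycogen metabolism edgeR called 0 (2 at an unadjusted p under 0.05, 0 by DESeq2), with a median of 0.11. PHKA2, a phosphorylase kinase subunit, stood at 24.9 and 25.1 CPM against 35.7 and 32.3 (0.44 ± 0.17; edgeR adjusted p = 0.235), but was called at 1.87 with the length offset (adjusted p = 0.0198) and at 1.76 by limma on rescaled TPM (adjusted p = 0.0256), and PGM2, a phosphopentomutase, at 28.1 and 21.3 against 42.7 and 31.4.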

How the data were processed

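Poly-A RNA of 4 libraries was read as pairs of 150 bp, per the labels' protocols. The authors deposited, per the file headers, an estimated count and a TPM for each transcript with its length and effective length. The submitters' processing notes name kallisto and hg38; kallisto's version, the transcript set and the strand setting are not stated there or in the labels.

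Transcripts were summed to genes with GENCODE 29 identifiers and then symbols, which adds alternate-contig copies of GPI and SLC16A1; unnamed transcripts (0.323% to 0.643% of counts) were left out. Sums of estimated counts were rounded. edgeR 4.0.16 (R 4.3.3) was fitted to all 35606 genes: filterByExpr (15388 kept), TMM, glmQLFit and glmQLFTest with genotype as the only term, two-sided, Benjamini-Hochberg adjustment over all genes at 0.05. The SE is the one the test statistic implies, and values after ± in the report are SEs (n = 2 per group). The biological coefficient of variation was 0.294. The scripts were tested on simulated counts. DESeq2 1.42.0 and limma 3.58.1 on log2(TPM + 1) served as alternatives, beside other normalization, filters, the replicate block, each library left out, a length offset, no mitochondrial genes, coding transcripts only and near-identical copies added. The test of single transcripts was added after the data were seen.

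The members, lists and alternatives were chosen with earlier results of these data known. Values are given per library for members called, for the 4 highest and 4 lowest fold changes and for the most abundant of each role, and from each other list for genes called or the 2 of smallest p; further members are given for completeness. Reads of 8 members may include those of an annotated antisense gene (PFKFB3, ALDOA, ALDOC, GAPDH, ENO1, LDHB, SLC16A1 and PDK1). Near-identical copies were annotated for 14 members and took at most 3.86% of the sum.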

Additional observations from a re-analysis of the deposited data

How the results depend on the processing

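The count of all genes called by edgeR (145) was 1159 with DESeq2, 1362 with no filter, 224 with a stricter filter, 2896 with limma on log2(TPM + 1) and 21 with coding transcripts only, and ran from 0 to 2139 as each library was left out. The count of members called (1) was 2 with DESeq2, 3 with no filter (SLC2A1, HK3 and SLC16A1), 10 with limma on log2(TPM + 1), and 0 with the length offset, without mitochondrial genes, with limma on rescaled TPM and with coding transcripts only; it ran from 0 to 7 as each library was left out. The members' median (-0.046) was -0.96 with limma on log2(TPM + 1) and ran from -0.25 to 0.090 as each library was left out; with coding transcripts only it was 0.072.

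The labels do not say whether WT and S1KO libraries of the same replicate number were prepared together. Deviations of WT 1 and S1KO 1 from their group means correlated at 0.025. With 2 libraries a group this single value cannot tell whether the numbers pair the libraries. With the replicate block 0 genes (2891 at an unadjusted p under 0.05) and 0 members were called, SLC2A1 had an adjusted p of 0.0917 and PFKFB3 turned to 0.14.

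Directions turned with limma on log2(TPM + 1) for SLC2A5 (-0.55), HK1 (-0.85), GPI (-0.87), PFKL (-0.88), TPI1 (-0.92), PGK1 (-0.94), PGAM1 (-0.72), PDK1 (-0.72), PDK3 (-0.058), PDK4 (-0.38), PGD (-0.46), TALDO1 (-0.65), MPC2 (-0.47), PDP2 (-0.83), HIF3A (-0.11) and PGM2 (-0.47), where the median of all genes moved to -0.78. On rescaled TPM they turned for PFKFB4 (0.013), TPI1 (-0.0094), PGK1 (-0.045), PDK1 (-0.064) and PDP2 (-0.16), with the length offset for PFKFB4 (0.069), PDK4 (-0.033) and PDP2 (-0.078), with the stricter filter for LDHB (0.0077), and with coding transcripts only for PFKM (0.57), ALDOA (0.096), LDHB (0.19), PDK3 (-0.55) and TKT (0.21). As each library was left out, values crossed 0 for SLC2A5 (-0.35 to 1.06), GPI (-0.11 to 0.41), PFKP (-0.65 to 0.60), PFKFB2 (-0.20 to 0.055), PFKFB3 (-0.60 to 0.92), PFKFB4 (-0.27 to 0.084), TPI1 (-0.032 to 0.37), PGAM1 (-0.089 to 0.66), ENO1 (-0.29 to 0.25), PKM (-0.25 to 0.066), LDHA (-0.53 to 0.039), LDHB (-0.25 to 0.21), PDK1 (-0.073 to 0.44), PDK3 (-0.52 to 0.60), PDK4 (-0.78 to 2.50), TKT (-0.33 to 0.090) and HIF1A (-0.90 to 0.30).

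With 2 libraries a group, the median width of the members' 95% intervals was 1.15 on the log2 scale. The cause of each turn was not tested.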

Other observations

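Several genes of the pathway outside the 33, chosen here after their values were seen, stood apart between the groups without being called by edgeR. FBP1, the fructose 1,6-bisphosphatase that runs the phosphofructokinase step backwards, stood at 0.143 and 0.574 CPM in WT and at 7.68 and 3.34 in S1KO (log2 fold change 3.90 ± 0.77, edgeR adjusted p = 0.083), and DESeq2 called it. SLC2A6, which encodes a lysosomal hexose transporter, stood at 33.5 and 42.4 CPM against 19.5 and 22.7 (-0.84 ± 0.20, edgeR adjusted p = 0.107). BPGM, which makes 2,3-bisphosphoglycerate, stood at 8.83 and 7.79 CPM against 3.50 and 4.28 (-1.09 ± 0.31, edgeR adjusted p = 0.139). In each of these both S1KO libraries lay on one side of both WT libraries, as 25.7% of all genes did below and 26.0% above.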
